A study of Mus musculus with 9 samples.

Results

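Leukocyte adhesion molecules are the surface proteins by which endothelial cells catch, hold and let through white blood cells, and 10 of their genes (Icam1, Icam2, Vcam1, Madcam1, Sele, Selp, Mcam, Alcam, Cd44 and Cd99l2) were followed here in meningeal lymphatic endothelial cells (MLECs). They were chosen by symbol, and all 10 were among the 24321 genes with an expression value. Selectins slow leukocytes so that they roll along the vessel wall. Members of the immunoglobulin superfamily, the ICAMs, VCAM-1 and MAdCAM-1, then bind integrins on the leukocyte for firm arrest, and molecules at the cell junctions take part in the passage through the endothelium. In lymphatic vessels ICAM-1 and VCAM-1 are best known from inflammation, when dendritic cells and lymphocytes use them to enter the vessel and reach the draining lymph node.

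The study compared MLECs from mice bearing intracranial tumors with those from mice without. The groups were Control mice given phosphate-buffered saline, mice given GL261 cells (a glioma line) about 3 weeks earlier, and mice given B16 cells (a melanoma line) about 2 weeks earlier, so that tumor type and time cannot be told apart. All mice were 10-week-old males of the C57BL/6 strain, to which both lines are syngeneic, and the labels give 100000 tumor cells per animal, placed through the cisterna magna. Each group had 3 libraries, each made from 10 cells sorted as CD31+ CD45- LYVE-1+ from the pooled meninges of 6 mice. These details follow the labels, whereas the study's text describes a subdural route and other cell numbers. Its results give 2 weeks for both tumors, and its methods give 2 to 3 weeks for the cell collection. The results also name a gate on podoplanin in place of LYVE-1. Nothing in the labels says that the 3 pools of a group were treated on separate days, so p-values measure the spread between pools. Expression was deposited as FPKM, a read abundance scaled for gene length and library size, which allows levels of different genes to be set side by side. Read counts were not used here, because the table holds none. An FPKM of 0 is written below as "listed at 0", since with 10 cells per library it can be a missed transcript or a failed estimate. The general transcription factor gene Tbp was such a case, and 1 of 14 housekeeping genes was at 0 in at least 1 Control library against 0 of 14 in the tumor libraries.

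Properties of the libraries bear on every comparison below. Genes above 0 numbered 7303 to 8688 in Control libraries, 9456 to 10852 in the GL261 ones and 8736 to 9950 in the B16 ones, so no Control library reached any tumor library. They were also the more shallowly sequenced ones by the study's own account, so depth and tumor bearing cannot be told apart. Of the 14 housekeeping genes, 4 were called higher and 0 lower in the tumor libraries, among them Gapdh (1.21 on the log2 scale) and Actb (0.74). The median of all 9955 genes tested was 0.20 higher in tumor libraries on the log2(FPKM + 1) scale. It fell to 0.03 after quantile normalization and to 0.05 after each library was rescaled to 1 common FPKM sum, and the share of higher genes among all calls then went from 73.9% to 62.1% and 64.4%.

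The libraries held lymphatic markers, but lymphatic and blood endothelial markers both moved with the groups. Lyve1, whose protein was used in the sort, was between 974 and 1705 FPKM in Control and between 628 and 1895 in the tumor libraries. Prox1, a lymphatic identity gene, was lower in every tumor library than in every Control library (-2.79, limma adjusted p = 0.0509). Sox18 of the same list went the other way (0.73, adjusted p = 0.329). The median difference of the lymphatic markers tested was -1.21. Of 10 lymphatic markers tested, 0 were called higher and 3 lower in tumor libraries (Flt4, the VEGF-C receptor gene, and Reln and Mmrn1), and the sum of the 11 markers was 2967 to 3452 FPKM in Control and 1323 to 3029 in the tumor libraries. Of 16 blood endothelial markers tested, 9 were called higher and 1 lower (Aqp1), and the sum of the 17 was 3196 to 4498 FPKM in Control and 8452 to 17334 in the tumor libraries. Flt1, the VEGF receptor 1 gene, was at 0.0997, 0.856 and 0.544 FPKM in Control replicates 1, 2 and 3 and between 49.0 and 156 in the tumor libraries. None of 7 pan-endothelial markers was called. The part of the blood endothelial genes in the results on adhesion molecules was not tested, and in bulk samples such as these fewer cells of a type and less RNA per cell cannot be told apart.

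**Figure D1:**
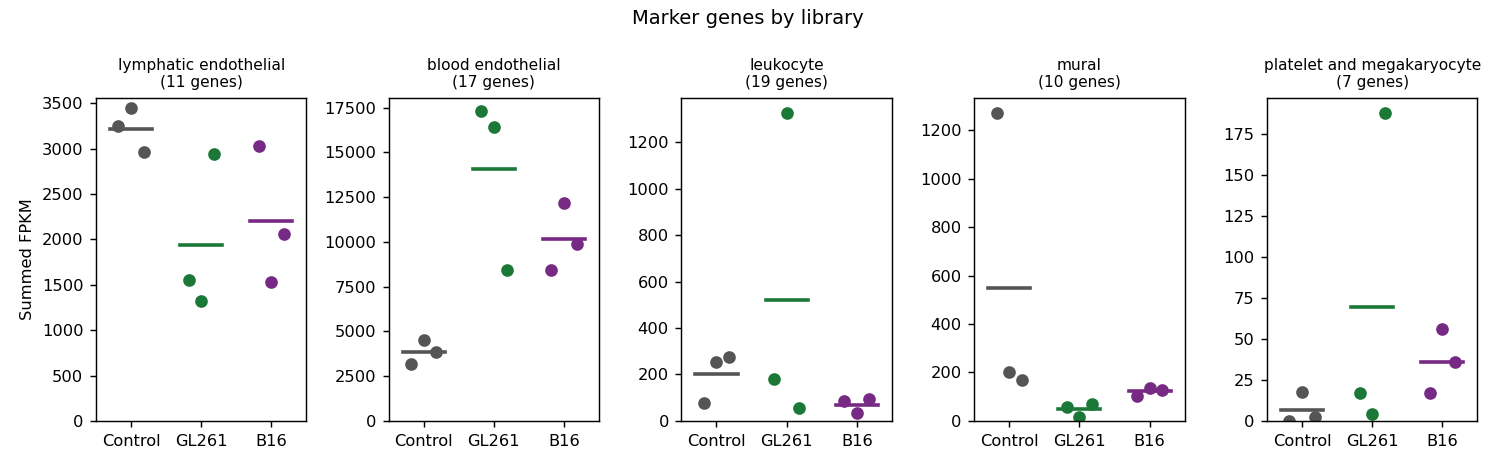
Summed FPKM of marker genes in each library (points) and group means (bars), for 5 lists of cell type markers, with a linear scale from 0 in each panel. The 6 tumor libraries lie above the 3 Control libraries for the blood endothelial list (8452 to 17334 against 3196 to 4498), and Control replicate 1 stands apart for the mural list at 1270.

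Across the 10 genes, summed FPKM ran from 122 to 329 in Control libraries, from 597 to 770 with GL261 tumors and from 721 to 1127 with B16 tumors. Icam2 had the highest mean in each group, Madcam1 was listed at 0 in all 9 libraries, and Alcam and Cd44 were near 0. The low-value filter, which asks for 3 or more libraries with an FPKM of 1 or more, left 7 genes in the test. In tumor against Control, with GL261 and B16 as 1 group, 2 of the 7 were called higher by limma at an adjusted p under 0.05 (Mcam and Selp), where 2.90% of all genes tested were called higher, and 0 were called lower, where 1.02% were. The median difference of the 7 was 1.63 on the log2(FPKM + 1) scale. The lowest tumor library exceeded the highest Control library for 3 of them (Mcam, Icam1 and Icam2), as it did for 6.08% of genes tested, and the reverse held for 1 (Cd99l2), as for 4.44% of genes tested. Icam1 and Mcam are also in the list of raised genes that the study drew from these same libraries, so their direction here is not independent evidence.

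**Figure D2:**
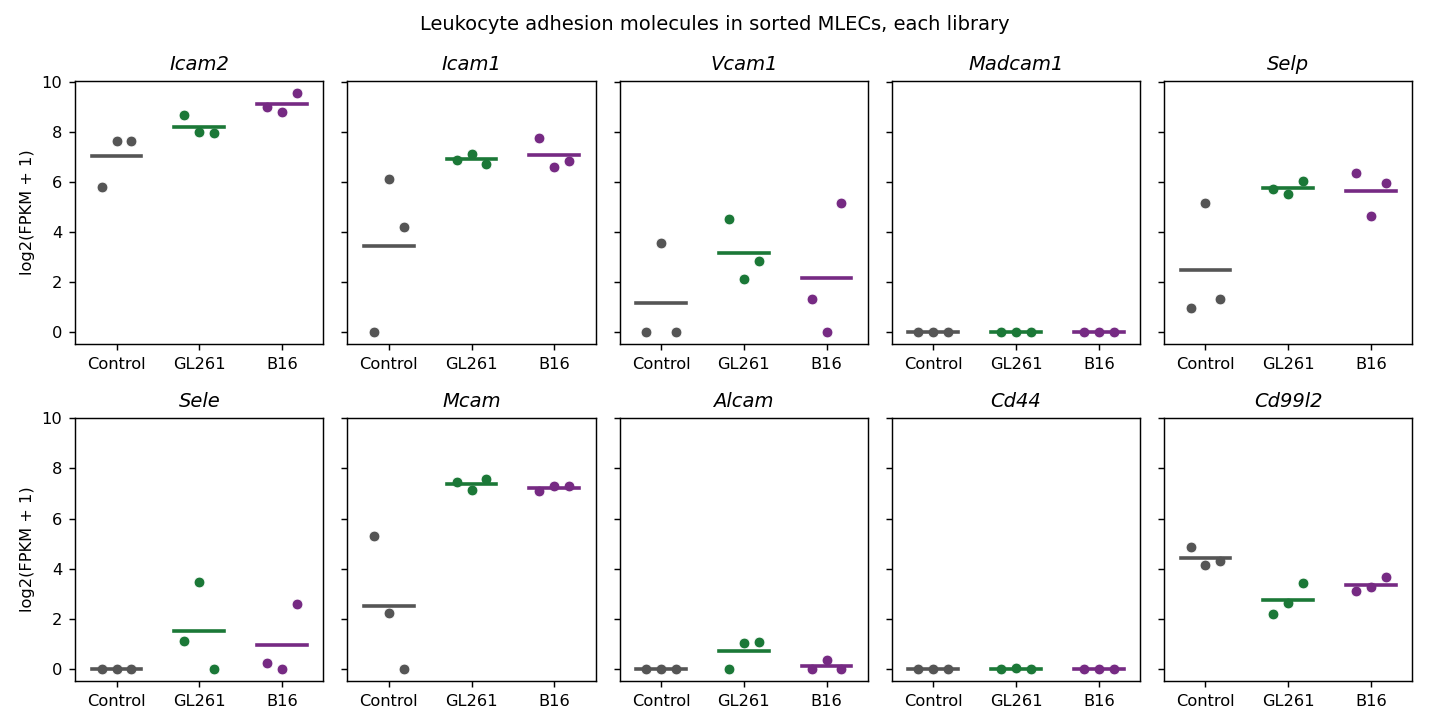
Expression of the 10 adhesion genes in each library (points) as log2(FPKM + 1), with group means as bars and replicates 1 to 3 from left to right. Mcam, Icam1 and Icam2 lie higher in every tumor library than in every Control library, Cd99l2 lies lower, and Madcam1 is listed at 0 throughout.

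Among the selectins, Selp rose in the tumor libraries and Sele was measured near its limit. Selp encodes P-selectin, which endothelial cells and platelets store in granules and bring to the surface on activation. It was at 0.945, 34.7 and 1.54 FPKM in Control replicates 1, 2 and 3, at 52.3, 45.1 and 64.7 in GL261, and at 81.6, 24.1 and 60.9 in B16. Control replicate 2 therefore lay above B16 replicate 2, and the other Control libraries lay below all 6 tumor libraries. The mean was 54.8 ± 19.5 FPKM (SD, n = 6) in tumor against 12.4 ± 19.3 (SD, n = 3) in Control, a 4.41-fold ratio of means, and the log2 difference was 3.22 (SE 0.81, limma adjusted p = 0.0443). The exact two-sided permutation p was 0.0238, where 0.0119 is the smallest that 3 against 6 libraries allow. The call is close to its threshold. It was kept without Control replicate 2 (4.56, limma adjusted p = 0.00107) and lost when any other single library was left out, with differences from 2.46 to 3.44, and it was also lost with the number of detected genes as a covariate (2.30, adjusted p = 0.564).

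Sele encodes E-selectin, made by endothelium after cytokine exposure. It was listed at 0 throughout Control, at 1.17, 9.99 and 0 FPKM in GL261 and at 0.182, 0 and 5.04 in B16. Of the 6 tumor libraries 2 were thus at 0, and the log2 difference of 1.24 did not pass the test (95% interval -0.50 to 2.97, limma adjusted p = 0.423). Sele met the low-value filter through the tumor libraries alone. Both genes lie in the selectin cluster of chromosome 1, Sele at chr1:165978365-165987808 and Selp at chr1:166045395-166080157, 67.0 kb apart by their starts (mm9, GENCODE M1). F5, the coagulation factor V gene on the far side of Selp, was no higher than 1.23 FPKM in any. An antisense gene, Gm16548, shares 9.93% of the Selp exon bases and was at 0 to 2.65 FPKM in Control and 4.77 to 14.1 in tumor libraries, and without strand its reads and those of Selp cannot be told apart.

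The 250 bases before the start of each selectin gene are shown because these neighbours reached different levels. They are RefSeq promoter sequences (from a table on GRCm38.p6), each found once in mm9 by exact match, and neither touches an annotated exon. Capitals mark matches on either strand to motifs chosen after these sequences had been seen. They are the TATA box, spelled TATAAA, the binding motif of the factor AP-1, searched as TGANTCA, and the GAS element, searched with the letters TTCNNNGAA. The windows are chr1:165978115-165978364 for Sele and chr1:166045145-166045394 for Selp, both on the plus strand.
Sele: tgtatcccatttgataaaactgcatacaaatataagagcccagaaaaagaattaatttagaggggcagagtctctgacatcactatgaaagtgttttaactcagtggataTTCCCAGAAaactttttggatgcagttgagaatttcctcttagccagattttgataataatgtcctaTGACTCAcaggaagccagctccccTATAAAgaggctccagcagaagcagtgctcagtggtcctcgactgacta
Selp: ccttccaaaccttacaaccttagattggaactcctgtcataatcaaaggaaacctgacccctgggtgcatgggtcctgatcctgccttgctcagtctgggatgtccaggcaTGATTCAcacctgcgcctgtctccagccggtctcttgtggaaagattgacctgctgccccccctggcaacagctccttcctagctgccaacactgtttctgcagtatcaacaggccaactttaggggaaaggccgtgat
The Sele window held a TATA box 49 bases before the start, an AP-1 match at 73 and a GAS match at 140. In the Selp window the AP-1 match at 139 bases before the start stood alone, and the TATA box, GAS element, kappaB core, cAMP response element and GC box had no match there. Of 32851 RefSeq windows of this length, 12.4% held the TATA box, 6.75% the AP-1 motif and 7.02% the GAS motif.

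The immunoglobulin superfamily ligands of leukocyte integrins were ordered Icam2, Icam1, Vcam1 and Madcam1 by mean FPKM in Control as in both tumor groups, and Icam2 and Icam1 were higher in every tumor library than in every Control library. Icam2 encodes ICAM-2, a constitutive endothelial ligand of the integrin LFA-1. Its FPKM was 54.8, 195 and 198 in Control replicates 1, 2 and 3, 404, 255 and 244 in GL261, and 507, 437 and 746 in B16. Each group was thus apart from the next in these libraries, with Control lowest and B16 highest. In tumor against Control the means were 432 ± 185 (SD, n = 6) and 149 ± 82.0 (SD, n = 3), and the log2 difference of 1.63 (SE 0.45) missed the threshold (limma adjusted p = 0.0672, exact permutation p = 0.0119). With both tumors as separate groups in the model, their mean difference from Control had a limma adjusted p of 0.0499, the 1 of 18 alternatives that passed. Without Control replicate 1 the difference was 1.02 (adjusted p = 0.214), and with detected genes as a covariate it was 1.39 (0.530).

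Icam1 encodes ICAM-1, the cytokine-inducible ligand of LFA-1 and Mac-1. It was listed at 0 in Control replicate 1 and was at 68.4 and 17.5 FPKM in replicates 2 and 3. GL261 libraries had 115, 138 and 104, and B16 libraries had 211, 95.5 and 114. The groups did not overlap, the nearest values being 68.4 in Control replicate 2 and 95.5 in B16 replicate 2. Mean FPKM was 130 ± 42.5 (SD, n = 6) in tumor and 28.7 ± 35.5 (SD, n = 3) in Control, and the log2 difference was 3.53 (SE 0.95, 95% interval 1.48 to 5.59, limma adjusted p = 0.0577, exact permutation p = 0.0119). Without Control replicate 2 the difference was 4.87 and passed (adjusted p = 0.00677), and without Control replicate 1, where Icam1 was listed at 0, it was 1.81 (adjusted p = 0.0850). With detected genes as a covariate it was 2.03 (limma adjusted p = 0.667), and for GL261 alone it went from 3.46 to 0.23 (0.988). In Control, Icam1 was above 56.9% of the genes detected in replicate 3 and above 85.3% in replicate 2, and in the tumor libraries it was above 89.0% to 94.3%.

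Icam1 lies at chr9:20820404-20833241 on the plus strand (mm9), followed within 16.1 kb by Icam4 and Icam5. Icam4, an erythroid ICAM, was listed at 0 in every library, and Icam5, the neuronal telencephalin gene, was at 0.667 and 1.88 FPKM in GL261 replicates 1 and 2 and 0 elsewhere. An antisense gene that GENCODE M1 names Mir1900 shares 19.33% of the Icam1 exon bases. Without strand its reads and those of Icam1 cannot be told apart. The promoter window of Icam1 is shown because the gene is a textbook target of NF-kB. It is RefSeq sequence placed by exact match at chr9:20820134-20820383 (mm9, plus strand), with the kappaB core GGAANTTCC, the GAS element and the GC box CCGCCC in capitals.
Icam1: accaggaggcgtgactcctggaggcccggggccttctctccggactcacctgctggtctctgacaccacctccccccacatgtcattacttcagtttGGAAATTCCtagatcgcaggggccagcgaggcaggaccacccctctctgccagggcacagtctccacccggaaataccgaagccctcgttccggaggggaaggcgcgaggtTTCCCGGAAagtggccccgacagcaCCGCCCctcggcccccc
The kappaB match began 153 bases before the start, the GAS match at 42 and the GC box at 17. A kappaB core occurred in 0.813% of the 32851 windows and a GC box in 32.7%, and Icam1 was the 1 of 8 member promoters given with a kappaB match.

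Vcam1, whose product binds the integrin VLA-4, was low and scattered. It was listed at 0, at 10.7 and at 0 FPKM in Control replicates 1, 2 and 3, at 21.9, 3.34 and 6.26 in GL261, and at 1.54, 0 and 34.6 in B16. Values from 0 upward thus occurred in Control and in B16, and the groups overlapped. The log2 difference of 1.48 had a 95% interval from -1.11 to 4.08 (limma adjusted p = 0.526), and with detected genes as a covariate it was -1.11. Madcam1, the gut homing ligand of the integrin alpha4beta7, was listed at 0 in all 9 libraries.

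Mcam showed the largest difference of the 7 genes tested in the fit of all 9 libraries, although without Control replicate 2 or 3 that of Icam1 was larger (4.87 against 4.65, and 3.92 against 3.53). It encodes MCAM (CD146), an adhesion molecule of endothelial junctions and of pericytes that is also made by many melanomas. It was at 38.4 and 3.73 FPKM in Control replicates 1 and 2 and listed at 0 in replicate 3. GL261 libraries had 173, 139 and 189, and B16 libraries 137, 155 and 155. All 6 tumor libraries were above all 3 Control libraries, and they were close to each other. The means were 158 ± 20.1 (SD, n = 6) in tumor and 14.0 ± 21.1 (SD, n = 3) in Control, an 11.3-fold ratio of means, with a log2 difference of 4.79 (SE 0.82, 95% interval 3.02 to 6.56, limma adjusted p = 0.00548, exact permutation p = 0.0119).

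The Mcam call was kept in all 9 fits that left out 1 library, with differences from 3.53 to 6.18. With detected genes as a covariate the difference was 5.74 and the call was lost (limma adjusted p = 0.116). Mcam also marks mural cells, whose 10 markers summed to 1270 FPKM in Control replicate 1 (Acta2 505, Tagln 641), 203 and 170 in the other Control libraries, and 17.6 to 137 in the tumor libraries. The Control library with the highest mural sum was thus also the one with the highest Mcam, and without it the difference was 6.18 (limma adjusted p = 0.000135). Melanocyte markers, which B16 cells could bring, summed to at most 0.783 FPKM in B16 libraries and at most 4.07 in any library. S100b, which is in the glial or glioma list rather than this one, was called higher in B16 against Control (4.80, limma adjusted p = 0.0135). The part of mural cells or of tumor cells in the Mcam values was not tested.

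Mcam lies at chr9:43942552-43950810 (mm9, plus strand). Its RefSeq start falls inside an exon that GENCODE M1 gives to longer transcripts, so a site of 30 bases is shown in place of a promoter window, at chr9:43942701-43942730, chosen because it holds a full cAMP response element (TGACGTCA, in capitals, with a GC box before it).
Mcam: ccCCGCCCcccTGACGTCAgcccccgacag
The element began 29 bases before the RefSeq start. It was present in 1.55% of the 32851 windows and in 1 of 8 member promoters. In the sequences printed here no motif match overlapped another.

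The 5 genes most like Mcam over the 9 libraries, by Pearson correlation of log2(FPKM + 1), were Glul (0.970), Grrp1 (0.965), Slc2a1 (0.964), Arf2 (0.959) and Sparcl1 (0.952). Glul encodes glutamine synthetase and Slc2a1 the glucose transporter of the blood-brain barrier. Slc2a1 ran from 0 to 17.9 FPKM in Control and from 77.6 to 312 in tumor libraries, and Sparcl1 from 0 to 39.3 and from 53.5 to 273. Mcam was taken for its smallest p in tumor against Control, so the genes most like it tend to share its step between groups. All 9 points also share the differences in detected genes given above. Of 9948 genes tested 7 had a correlation above 0.95, and the likeness is only a description.

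Alcam, whose product binds CD6 on T cells, was listed at 0 in Control, at 0, 1.03 and 1.12 FPKM in GL261, and at 0, 0.279 and 0 in B16, and it was not tested. Cd44, the hyaluronan receptor of leukocytes and many other cells, was listed at 0 in 8 libraries and at 0.0293 FPKM in GL261 replicate 2. Alcam was thus above 0 in 3 tumor libraries, none of them over 1.12 FPKM, and Cd44 in 1.

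Cd99l2 was the 1 member with lower values in tumor libraries. Its product, CD99L2, sits at endothelial junctions and takes part in leukocyte passage. It was at 28.4, 16.8 and 18.7 FPKM in Control replicates 1, 2 and 3, at 3.52, 5.14 and 9.78 in GL261, and at 7.69, 8.65 and 11.8 in B16. Every tumor library was below every Control library. Mean FPKM was 7.76 ± 3.02 (SD, n = 6) in tumor and 21.3 ± 6.21 (SD, n = 3) in Control, and the log2 difference of -1.40 (SE 0.59) did not pass the test (limma adjusted p = 0.222, exact permutation p = 0.0119). With detected genes as a covariate it was -0.60 (limma adjusted p = 0.872), and for GL261 alone it went from -1.70 to -0.84 (0.901). In the order of mean FPKM, Cd99l2 stood at place 3 of 10 in Control and at place 6 in tumor, while Mcam went from place 4 to place 2. In Control the range of every gene over the libraries overlapped that of its neighbour in that order. In tumor, only Icam2 and Icam1 had a lowest value above the highest value of the next gene, among genes above 0.

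The comparisons of single tumors share their Control libraries, so they are given side by side. In GL261 against Control, 1 of 7 genes was called higher, Mcam (4.87, SE 0.99, limma adjusted p = 0.0216), where 2.58% of genes tested were. The groups did not overlap for 5 of 7 genes, 4 higher and 1 lower, as for 22.5% of genes tested in either direction. In B16 against Control, 2 of 7 were called higher, Mcam (4.71, SE 0.99, limma adjusted p = 0.0349) and Icam2 (2.08, SE 0.48, adjusted p = 0.0473), where 1.61% of genes tested were, and the groups did not overlap for 4 of 7 genes, as for 17.2%. The 10 glial or glioma markers moved with B16, summing to 28.2 to 45.6 FPKM there against 0.102 to 0.739 in Control libraries and 0.0374 to 13.6 with GL261 tumors, with S100b called higher in B16 (4.80, limma adjusted p = 0.0135). Their part in these results was not tested.

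These calls were less stable than that on both tumors. The Mcam call in GL261 was lost without Control replicate 2 (limma adjusted p = 0.0517) and without GL261 replicate 1, 2 or 3 (0.0891, 0.0824 and 0.0788), and was kept without any of the other 5 libraries. In B16 the Mcam call was kept only without Control replicate 1 (0.00138) or 3 (0.0439), and lost without each of the other 7 libraries (0.0545 to 0.124). The Icam2 call in B16 was kept only without Control replicate 2 (0.0391) or 3 (0.0447), and lost without each of the others (0.0619 to 0.181). Leaving out Control replicate 2 brought Icam1 and Selp past the threshold in both tumors, for Icam1 with limma adjusted p = 0.0271 in GL261 and 0.0281 in B16, and for Selp with 0.00565 and 0.00640.

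**Figure D3:**
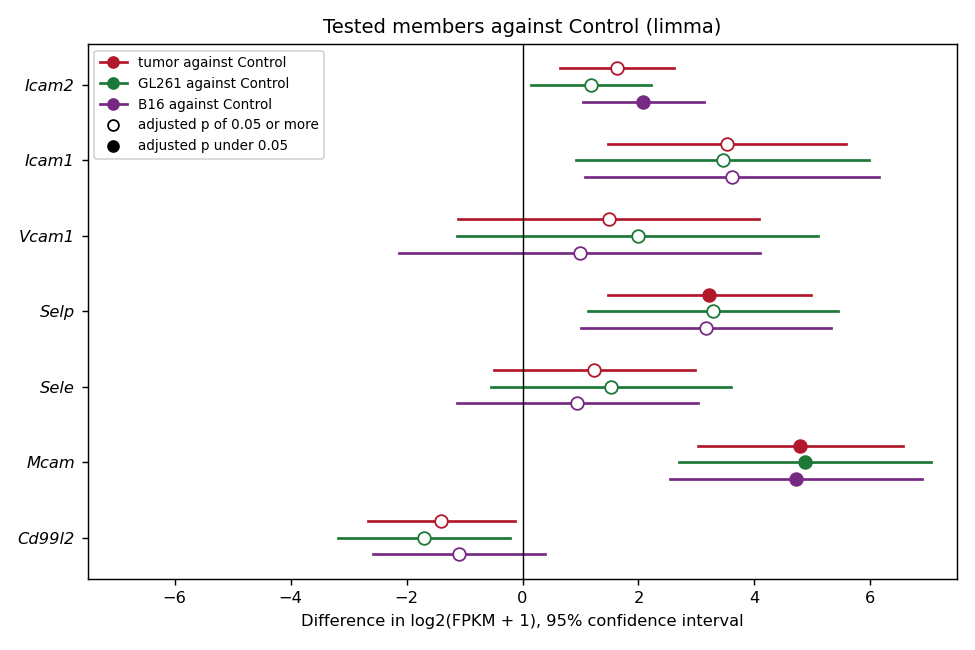
Difference in log2(FPKM + 1) from Control for the 7 genes tested, with 95% confidence intervals from limma, for both tumors together (red), GL261 (green) and B16 (purple). Filled points have an adjusted p under 0.05: Mcam in all 3 comparisons, Selp for both tumors together and Icam2 for B16.

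The 2 tumors were also compared directly. None of the 7 genes was called between GL261 and B16 by limma at an adjusted p under 0.05, where 0.0100% of all genes tested were, which is 1 gene. At an unadjusted limma p under 0.05 there were also 0 of the 7, against 548 of all 9955 genes tested. Groups did not overlap for Icam2, lower in GL261 by 0.90 on the log2 scale (95% interval -1.94 to 0.14, limma adjusted p = 0.973), as for 13.8% of genes tested. With 3 libraries against 3 there is no exact permutation p below 0.1. For Mcam the difference was 0.16 (95% interval -2.01 to 2.33), for Icam1 -0.16 (-2.68 to 2.37) and for Selp 0.11 (-2.04 to 2.27), so a difference of 2 on the log2 scale in either direction lies within each of these intervals.

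Other endothelial adhesion and transmigration genes included calls in both directions. Of the 35 genes with a value, 30 were tested in tumor against Control, 8 were called higher and 2 lower (2.90% and 1.02% of all genes tested were), and the median difference was 0.73 against 0.20 for all genes. Cd34, a sialomucin that can carry selectin ligands, was at 0.370 to 14.3 FPKM in Control and 153 to 592 in tumor libraries (6.38, limma adjusted p = 0.000166). Esam, an endothelial junction molecule, was at 1.89 to 34.1 and 335 to 748 FPKM (6.03), Emcn, endomucin, at 61.4 to 145 and 435 to 1983 (3.41), and Jam2, another junctional molecule, at 0 to 3.62 and 14.7 to 74.9 (4.30). Cd34, Esam and Emcn are also in the list of blood endothelial markers, and 7 genes of this list are in some marker list.

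Cd200, an immunoinhibitory ligand, rose from a range of 51.0 to 114 FPKM to 227 to 356 (1.96, limma adjusted p = 0.00314). Thy1 fell from 222 to 367 FPKM in Control to 7.28 to 44.1 (-3.72, adjusted p = 0.00189). It encodes CD90, which lymphatic endothelium and fibroblasts carry and which binds leukocyte integrins. The 10 fibroblast and meningeal markers summed to 16.4 to 151 FPKM in Control and 1.86 to 19.9 in tumor libraries, and of 2 tested 1 was called lower, the matrix gene Dcn (-4.60, limma adjusted p = 0.00110). Their part in the Thy1 values was not tested. Of the most abundant genes not called, Cd9 and Cd81, both tetraspanins, differed by -0.23 and 1.14 (adjusted p = 0.699 and 0.0812), and Lyve1 by -0.36 (0.629).

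Leukocyte counter-receptors of the members mostly failed the low-value filter. Of 16 genes 5 were listed at 0 in every library and 6 were tested. In either direction 0 were called (2.90% of all genes tested were called higher and 1.02% lower). The median difference was -0.32, against 0.20 for all genes. Lgals9, encoding galectin-9, a ligand of CD44, was at 187 to 280 FPKM in Control and 288 to 478 in tumor libraries (0.67, limma adjusted p = 0.188), and Itgb1, the beta1 integrin gene, at 67.9 to 108 and 125 to 206 (0.73, adjusted p = 0.224). Both were higher in every tumor library than in every Control library. Itgb2, the beta2 integrin subunit of LFA-1 and Mac-1, ran from 0 to 59.6 FPKM in Control and from 0 to 71.7 in tumor libraries (-0.17, adjusted p = 0.964). Ptprc, the CD45 gene used to gate leukocytes out, was listed at 0 in all 9 libraries, and of 5 leukocyte markers tested 0 were called. The 19 leukocyte markers summed to 77.7 to 274 FPKM in Control and 34.0 to 1326 in tumor libraries, the highest in GL261 replicate 2 with Cd74 at 961 and Lyz2 at 324.

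P-selectin is also a platelet protein, so platelet genes were read beside Selp. Pf4, encoding platelet factor 4, was listed at 0 in Control and ran from 0 to 187 FPKM in tumor libraries, whereas Ppbp and Gp9 were listed at 0 in all 9 libraries. The 7 platelet markers summed to 0 to 17.6 FPKM in Control and 4.35 to 188 in tumor, and 0 of 2 tested were called. Vwf, stored with P-selectin in endothelial granules, was at 0, 1.92 and 0.0956 FPKM in Control replicates 1, 2 and 3 and at 3.67 to 62.2 in tumor libraries (4.23, limma adjusted p = 0.0142). The part of platelets in the Selp values was not tested.

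Hyaluronan and CD44 partner genes had a median difference of 1.25 over 11 genes tested of 18, against 0.20 for all genes. Of the 11, 2 were called higher and 0 lower (2.90% and 1.02% of all genes tested were). Srgn, the serglycin proteoglycan that can bind CD44, was at 0, 46.9 and 127 FPKM in Control and 579 to 1709 in tumor libraries (5.56, limma adjusted p = 0.0126). Msn, moesin, which ties ICAMs and CD44 to actin, was at 66.1 to 99.4 and 126 to 217 FPKM (1.27, adjusted p = 0.0345). The hyaluronan synthase genes Has1, Has2 and Has3 were listed at 0 in every library. Hyal2, a hyaluronidase, and Rdx, radixin, differed by 1.32 and 0.73 without passing (adjusted p = 0.225 and 0.501), as did the ezrin-binding scaffold Slc9a3r2 by 1.10 (0.241).

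Sheddases and membrane partners had a median of 0.11 over 12 genes tested, under the 0.20 of all genes. In this list 2 were called higher and 0 lower, where 2.90% and 1.02% of all genes tested were. Timp1, an inhibitor of metalloproteinases, was listed at 0 throughout Control and reached 15.1 to 137 FPKM in tumor (limma adjusted p = 0.000275). It thus passed the low-value filter through the tumor libraries alone. Adam15, a surface metalloproteinase, was at 0 to 13.2 and 26.3 to 117 FPKM (3.56, adjusted p = 0.0227). Timp3, Actn4 and Mmp14 were the most abundant of the others and differed by -0.41, -0.25 and -0.28, none of them called.

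Genes of the signals that induce ICAM-1, VCAM-1 and the selectins, TNF, interleukin-1, lymphotoxin and NF-kB, had a median of 0.43 over 29 tested of 30. The median of all genes tested was 0.20. Of the 29, 3 were called higher and 0 lower, beside 2.90% and 1.02% of all genes tested. Tnfrsf1a, TNF receptor 1, was at 49.5 to 60.2 FPKM in Control and 141 to 192 in tumor libraries (limma adjusted p = 0.0109). Nfkbia and Tnfaip3, inhibitors of NF-kB that NF-kB itself induces, also rose, Nfkbia from 256 to 437 FPKM to 546 to 962 (1.11, adjusted p = 0.0346) and Tnfaip3 from 0 in all 3 Control libraries to 3.74 to 36.1 (adjusted p = 0.0355). Tnfaip3 thus passed the low-value filter through the tumor libraries alone. The other NF-kB subunit and inhibitor genes of the list were Nfkb1, Nfkb2, Rel, Rela, Relb, Nfkbib and Nfkbie. Their differences ran from -0.53 (Nfkbie) to 1.02 (Rel), and none was called (limma adjusted p of 0.579 or more). NF-kB activity was not tested. The stress response genes Fos, Atf3 and Jun, which tissue handling can raise, differed by 0.04, 0.49 and 0.43, and none passed (adjusted p = 0.962, 0.612 and 0.701).

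**Figure D4:**
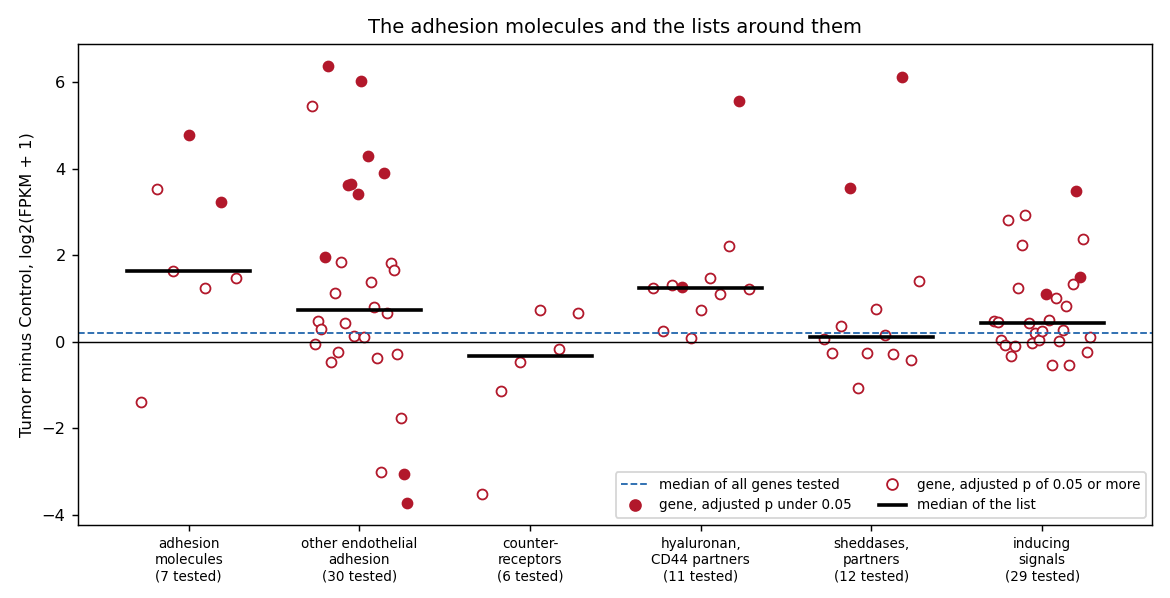
Difference in log2(FPKM + 1) between tumor and Control libraries for each gene tested (points, filled where the limma adjusted p is under 0.05) in the adhesion molecules and in 5 lists of genes around them, with the median of each list as a black bar and that of all genes tested (0.20) as a dashed line. The medians run from -0.32 for counter-receptors to 1.63 for the adhesion molecules.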

How the data were processed

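RNA-seq libraries of sorted MLECs from 3 Control, 3 GL261 and 3 B16 pools were compared. The authors aligned reads to mm9 with TopHat2 2.0.12 and deposited FPKM from Cufflinks 2.2.1, with 1 value for each gene symbol and library and no read counts. The gene annotation given to Cufflinks is not given in the sources used here. No library-preparation strand information was used, so overlapping genes are not separated. Groups came from the sample labels, and 0 library pairs were identical.

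Values were put on the log2(FPKM + 1) scale, and genes that reached an FPKM of 1 in 3 or more libraries were tested with limma 3.58.1 in R 4.3.3 (lmFit, eBayes with a trend), with Benjamini-Hochberg adjustment over 9955 genes and a threshold of 0.05. Fold changes on this scale understate those of low genes. Of the genes tested, 6.56% were at 0 in all 3 Control libraries and so passed the filter through tumor libraries alone. GL261 and B16 were joined for tumor against Control (2 groups, 9 libraries), and single tumors were compared in a fit of 3 groups. Exact two-sided permutation tests of single genes used all 84 divisions of 9 libraries. Their p-values are not adjusted over genes. For Icam1, Icam2, Mcam and Cd99l2 the p was at its floor of 0.0119, which restates that the groups did not overlap. Genes outside the 10 members were named by rule: in each list up to 6 called genes by adjusted p, then the 3 of highest mean FPKM among the others, and the 5 most like the called member of lowest adjusted p. Other genes named (markers, genomic neighbours, overlapping genes, further NF-kB genes) were chosen after their values were seen.

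The members and lists were chosen with earlier results of these data known. The fits were also run on simulated normal values with no difference in detected genes between groups, so those runs do not bear on that difference in the real libraries. FPKM hold no counts, so no counting intervals are given. Alternatives were the pseudocount, filters, scalings, a replicate block, detected genes as a covariate, other groupings and leaving out each library. Gene positions came from GENCODE M1, promoters from RefSeq (8 of 10 members matched). Figures used Python 3.11.15, pandas 2.3.3 and matplotlib 3.10.9. Some genes of the lists are not reported here.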

Additional observations from a re-analysis of the deposited data

Results flagged for a closer look

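Among the 6 tumor libraries, Cd44 was listed at 0 in 5 and at 0.0293 FPKM in GL261 replicate 2, which Dixon's test marks as apart from the others. With 5 values tied at 0 any value above 0 is marked, so the test says nothing more about this library, and the level is under what these libraries resolve. In the 8 other members with any spread over the tumor libraries no library was marked.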

How the results depend on the processing

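In tumor against Control, the Mcam call was kept in 9 of 9 fits without 1 library and under 8 of 9 other settings, and Selp lost its call in 16 of 18, being kept without Control replicate 2 and with a mean FPKM filter of at least 10 (limma adjusted p = 0.0377). Over the other settings its adjusted p reached 0.564. Members called were 1 under a pseudocount of 0.1, quantile normalization, no filter, the replicate block, rescaled FPKM sums and eBayes without a trend, 0 with detected genes as a covariate, and 1 to 3 when 1 library was left out. Calls over all genes went from 391 to 254 without a filter, to 13 with the covariate, and to between 245 and 444 when 1 library was left out (245 without GL261 replicate 2, 247 without B16 replicate 3, 259 without Control replicate 1 and 260 without GL261 replicate 1). In GL261 against Control the 347 calls became 218 without a filter, 230 with the replicate block, 197 with only the 6 libraries compared, 6 with the covariate and 105 to 363 without 1 library, and the 1 member called became 0 with a pseudocount of 0.1, no filter, the covariate or only 6 libraries and 0 to 2 without 1 library. In B16 against Control the 210 calls became 135 without a filter, 38 with only 6 libraries, 17 with the covariate and 69 to 274 without 1 library, and the 2 members called became 1 under quantile normalization and the replicate block, 0 under a pseudocount of 0.1, no filter, the covariate or only 6 libraries, and 0 to 3 without 1 library. Between GL261 and B16 the 1 call became 2 with quantile normalization and 1 to 4 without 1 library. The cause of these moves was not tested.

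Differences changed sign with detected genes as a covariate, none of them called: against Control, Sele -0.55 and Vcam1 -1.11 for both tumors, Icam2 -0.43, Sele -1.35 and Vcam1 -2.01 for GL261, Sele -0.63 and Vcam1 -1.20 for B16, and between GL261 and B16, Sele -0.72, Selp -0.66 and Vcam1 -0.81. Without 1 library, Vcam1 ran from -0.51 to 2.17 in B16 against Control, and between GL261 and B16 Icam1 ran from -0.39 to 0.18, Selp from -0.39 to 0.47 and Vcam1 from -0.084 to 2.49. Sele could not be fitted in 3 of the 9 fits without 1 library, nor Sele and Vcam1 with a mean FPKM of at least 10, because they no longer passed the filter.

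Replicate numbers did not pair the libraries: correlations of deviations between same-numbered libraries ran from -0.03 to 0.04, with 0 of 9 over 0.1. With the replicate block, Selp in tumor against Control had an adjusted p of 0.0688 and Icam2 in B16 against Control one of 0.0790. With 10 cells and no read counts, genes under a few FPKM are not resolved.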
